A study of Saccharomyces cerevisiae with 67 samples.

Results

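Budding yeast meets heat, oxidants, high osmolarity and starvation with a small set of DNA-binding proteins, and the chromatin of the genes that encode 10 of them is described here. The genes were HSF1, MSN2, MSN4, SKN7, YAP1, GIS1, RPH1, HOT1, SKO1 and CRZ1. They were found by symbol among the 6002 nuclear protein-coding genes of the sacCer3 annotation, and all 10 were present. For each of them, the start, the promoter (taken as the 500 bp before the start), the body and the neighbours were placed on a list of genomic regions carrying histone H4 acetylated at lysine 12 (H4K12ac).

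The cells were mip6Δ and wild-type (WT) cells of the laboratory strain BY4741, grown in rich medium (YPD) to exponential phase. Each culture was split into a flask kept at 30 °C and flasks brought to 39 °C for 20 or 120 min, and the strain that lacks Mip6, an RNA-binding protein, was followed beside its parent. The H4K12ac libraries numbered 11 for mip6Δ (4 at 30 °C, 3 at 20 min and 4 at 120 min) and 8 for WT (3 at 30 °C, 1 at 20 min and 4 at 120 min). H4K12ac peaks had been merged across samples into 1 list of 1970 regions that holds positions and no levels. Each value below is therefore a length, a distance or a count taken on that pooled list, without replicates, errors or tests, and nothing can be said of mip6Δ against WT cells or of 39 °C against 30 °C. The regions were 504 to 25822 bp long with a median of 2835 bp, and together they covered 61.8% of the nuclear genome. The read depth behind a region is unknown, because the list holds no counts, and a bare stretch means only that no peak was called there.

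Acetylation of lysine 12 in the tail of histone H4, laid down on chromatin by acetyltransferases such as NuA4, is generally found on nucleosomes of active genes. Most of the proteins encoded by the 10 genes are held in check in unstressed cells by their location, by phosphorylation or by binding partners, so that the factor is largely already present when stress arrives. Msn2, Yap1 and Crz1, for example, gather in the nucleus on stress.

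The start of each of the 10 genes lay inside a region (10 of 10), a property shared by 89.9% of all 6002 genes. All 10 promoters were touched by a region, against 92.4% of all promoters. Whole promoters were covered in 8 of 10, against 79.7% of all genes, and the exceptions were SKN7 and MSN4. Only MSN4 was covered over its whole length (1 of 10), against 55.0% of all genes. With 10 genes, the counts for starts and promoters stood close to the shares over all genes.

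**Figure D1:**
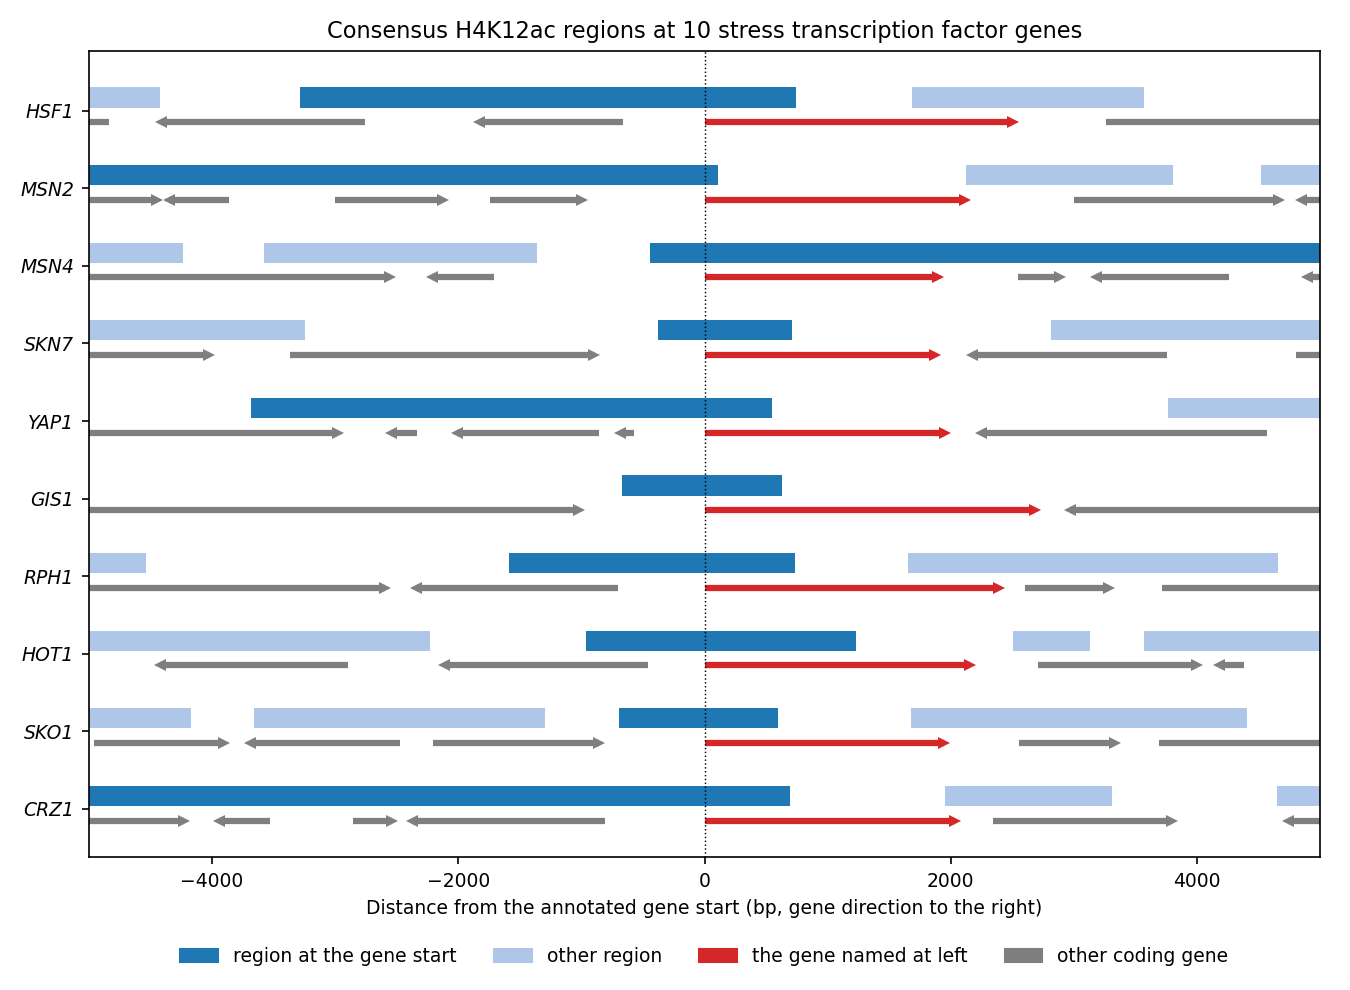
Consensus H4K12ac regions (dark blue, the region at the gene start; light blue, other regions) and coding genes (red, the gene named at left; grey, other genes) around the 10 stress transcription factor genes, by distance in bp from the annotated start with the gene running to the right. Most dark bars cross the start and stop within the red gene, that of MSN2 only 110 bp past its start, and that of MSN4 runs on 7649 bp past its start.

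The region edges inside a promoter or just inside a gene are printed for the 3 genes whose coverage departed from the common pattern, since they show which bases were in and which were out. Each run is 100 bases of the reference genome read along the gene, with the 50 bases inside the region in capitals and the 50 outside it in lower case. The SKN7 and MSN4 runs hold the upstream edge in the promoter, and the MSN2 run holds the downstream edge within the coding sequence, bases 61 to 160.
SKN7, chrVIII:512300-512399, plus strand: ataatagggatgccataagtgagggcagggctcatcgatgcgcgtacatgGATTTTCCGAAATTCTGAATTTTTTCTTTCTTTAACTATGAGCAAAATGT
MSN4, chrXI:322734-322833, plus strand: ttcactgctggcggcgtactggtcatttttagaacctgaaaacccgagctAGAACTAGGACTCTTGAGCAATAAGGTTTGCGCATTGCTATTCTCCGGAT
MSN2, chrXIII:346358-346457, minus strand: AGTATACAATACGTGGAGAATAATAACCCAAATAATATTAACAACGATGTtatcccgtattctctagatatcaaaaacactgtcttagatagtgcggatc
An edge of a merged region is that of the farthest peak of any library, so these borders are not exact to the base.

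HSF1 (YGL073W, VII:368753-371254, plus strand) encodes the essential factor that binds heat shock elements and drives chaperone genes. Its start lay in a region of 4023 bp (365471-369493) that began 3282 bp upstream and ended 741 bp into the gene. The same region held the starts of RPL7A, a ribosomal protein gene, and of MPS2, a spindle pole body gene that runs the other way from HSF1 with 664 bp between them. The promoter was covered in full. Of the 2502 bp gene, 62.4% was covered, in 2 pieces: the start region gave 741 bp, and the next region (370435-372321), which holds the start of the iron regulator gene AFT1 downstream, gave 820 bp. The 941 bp between them, the middle of HSF1, lay in no region.

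MSN2 and MSN4 encode related zinc finger proteins that bind the stress response element and stand in for each other at many targets. Their covered shares were the lowest and the highest of the 10 genes. MSN2 (YMR037C, XIII:344403-346517, minus strand) had its start at the very end of a 9806 bp region (346408-356213), longer than 95.1% of all regions, that reached 9696 bp upstream and 110 bp into the gene. That region held the starts of 7 other genes (CCS1, SUB1, YET2, ARA2, ARG80, MCM1 and IOC4). ARG80 and MCM1 are themselves transcription factor genes of the MADS-box family, and CCS1, the nearest, encodes the copper chaperone of superoxide dismutase and lies 993 bp away on the same strand. The promoter of MSN2 was covered in full, but the gene only over 5.20% of its 2115 bp. The following region began 4 bp beyond the end of MSN2, so the bare stretch of 2009 bp coincided with nearly the whole coding sequence.

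MSN4 (YKL062W, XI:323228-325120, plus strand) showed the reverse arrangement. Its region of 8093 bp (322784-330876) reached only 444 bp upstream, which covered 88.8% of the promoter, and ran 7649 bp downstream over the whole 1893 bp gene and the starts of BLI1, FBA1, MPE1 and TOA2. FBA1 encodes the glycolytic aldolase, and TOA2 a subunit of the general factor TFIIA. The divergent neighbour upstream, YKL063C, is 1709 bp away and had its start in another region (319652-321865), with 918 bp between the regions in no region. The covered share of the MSN2 gene was thus 94.8 percentage points below that of MSN4, although the genes differ little in length and each had its start in a region.

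SKN7 (YHR206W, VIII:512732-514600, plus strand) encodes a response regulator with an Hsf1-type DNA-binding domain that acts in the oxidative and osmotic responses. It had the shortest region of the 10 genes, 1091 bp (512350-513440), longer than only 8.17% of all regions. The region held no other gene start. It reached 382 bp upstream, so that 76.4% of the promoter was covered, the lowest value of the 10, and 709 bp into the gene, for 37.9% of its 1869 bp. The next region upstream was 2864 bp away, on the side of the kinase gene SCH9. The next one downstream was 2103 bp away, on the side of the histone methyltransferase gene SET5. Wider gaps lay beside other genes of the 10, such as 9674 bp upstream of the MSN2 region. Gaps were not compared with those between all regions.

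YAP1 (YML007W, XIII:253848-255800, plus strand) encodes the leucine zipper factor of the oxidative stress response. Its region of 4234 bp (250163-254396) extended 3685 bp upstream over the starts of MRPL39, ERG6 and MIN4, and its far edge lay within SPT5. MIN4 is divergent from YAP1 with 575 bp between them. ERG6 encodes an enzyme of ergosterol synthesis. The promoter was covered in full, including the annotated upstream open reading frame in the YAP1 leader (253763-253783, 21 bp). The region ended 549 bp into the gene, and the other 1404 bp of the 1953 bp gene were bare, for a covered share of 28.1%. The next region downstream began 3212 bp further on.

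GIS1 and RPH1 encode related proteins with a Jumonji domain and zinc fingers that act at the post-diauxic shift, and Rph1 is a demethylase of histone H3. GIS1 (YDR096W, IV:637139-639823, plus strand) had a short region of 1297 bp (636469-637765) that reached 670 bp upstream and 627 bp into the gene and held no other start. No region lay within 4634 bp upstream of it or 4812 bp downstream of it, along the flippase gene DNF2 and the mismatch repair gene MSH6. The promoter was covered in full and the 2685 bp gene, the longest of the 10, over 23.4%. The replication origin ARS421, downstream of GIS1 (640006-640072), lay in no region.

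RPH1 (YER169W, V:523369-525759, plus strand) had a region of 2320 bp (521784-524103) shared with CCA1, the divergent tRNA nucleotidyltransferase gene 699 bp away. It reached 735 bp into the gene. A further 736 bp at the end of RPH1 belonged to the next region (525024-528029), which holds the start of the adenylate kinase gene ADK2, and 920 bp between them were bare. RPH1 was covered over 61.5% of its 2391 bp, so GIS1 was 38.2 percentage points below RPH1. The start regions entered the 2 genes to a like extent, by 627 bp in GIS1 and by 735 bp in RPH1.

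HOT1, SKO1 and CRZ1 act downstream of signalling enzymes, the first 2 with the osmotic stress kinase Hog1 and the last with the calcium-activated phosphatase calcineurin. HOT1 (YMR172W, XIII:605981-608140, plus strand) had a region of 2188 bp (605020-607207) shared with EAR1, divergent and 460 bp away. It reached 1227 bp into HOT1, farther than in any of the other 9 genes but MSN4, and covered 56.8% of its 2160 bp. The start of DDR48, a stress-induced gene 548 bp downstream, lay in a separate region (608484-609110) that did not touch HOT1.

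SKO1 (YNL167C, XIV:319416-321359, minus strand), which encodes a leucine zipper repressor and activator of osmotic stress genes, had a region of 1294 bp (320760-322053) with no other gene start. It reached 694 bp upstream and 600 bp into the gene. A further 268 bp at the end of SKO1 were covered by the region that holds the start of FMP41 (316954-319683), for 44.7% of the 1944 bp in all. The upstream edge fell inside the replication origin ARS1415 (321921-322213), of which 45.4% was covered. The nearest gene upstream was BNI5, 859 bp away.

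CRZ1 (YNL027W, XIV:579580-581616, plus strand) encodes the calcineurin-dependent zinc finger factor. Its region of 6311 bp (573965-580275) held the starts of SIW14, of the histone genes HHT2 and HHF2, which encode H3 and H4, and of KTR5, divergent from CRZ1 with 806 bp between them. The region ended 696 bp into the gene. Another 83 bp at the far end belonged to the region of SAM50, and 38.2% of the 2037 bp gene was covered.

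The maps of most of the 10 genes had a shape in common. In 8 of the 10 genes, all but MSN2 and MSN4, the start region ended 549 to 1227 bp into the gene. In 4 of these 8 (HSF1, RPH1, SKO1 and CRZ1) a second region, that of the next gene downstream, re-entered at the far end and left a bare middle of 920 to 1258 bp. The share of other genes with this shape was not counted, so it is not shown to be particular to the 10. Among genes of 1869 to 2685 bp with their start in a region, the start region reached a median of 864 bp into the gene. The windows of fixed length show the shape in the 10 genes most plainly. The first 500 bp of the gene were covered in full in 9 genes and over 22% in MSN2. Over the 5109 genes of that length or more, the lower quartile and the median were both 100%, and the mean was 90.9%. Over bases 501 to 1000, the median of the 10 genes was 40.5%, with MSN2 at 0 and MSN4 and HOT1 at 100%, against a median of 89.0% over the 3592 genes that long and of 70.0% over the 834 genes within the length range of the 10 (1869 to 2685 bp). Over bases 1001 to 1500, only MSN4 (100%) and HOT1 (45.4%) had any coverage, and the median was 0 both in the 10 genes and in the 2248 genes that long.

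**Figure D2:**
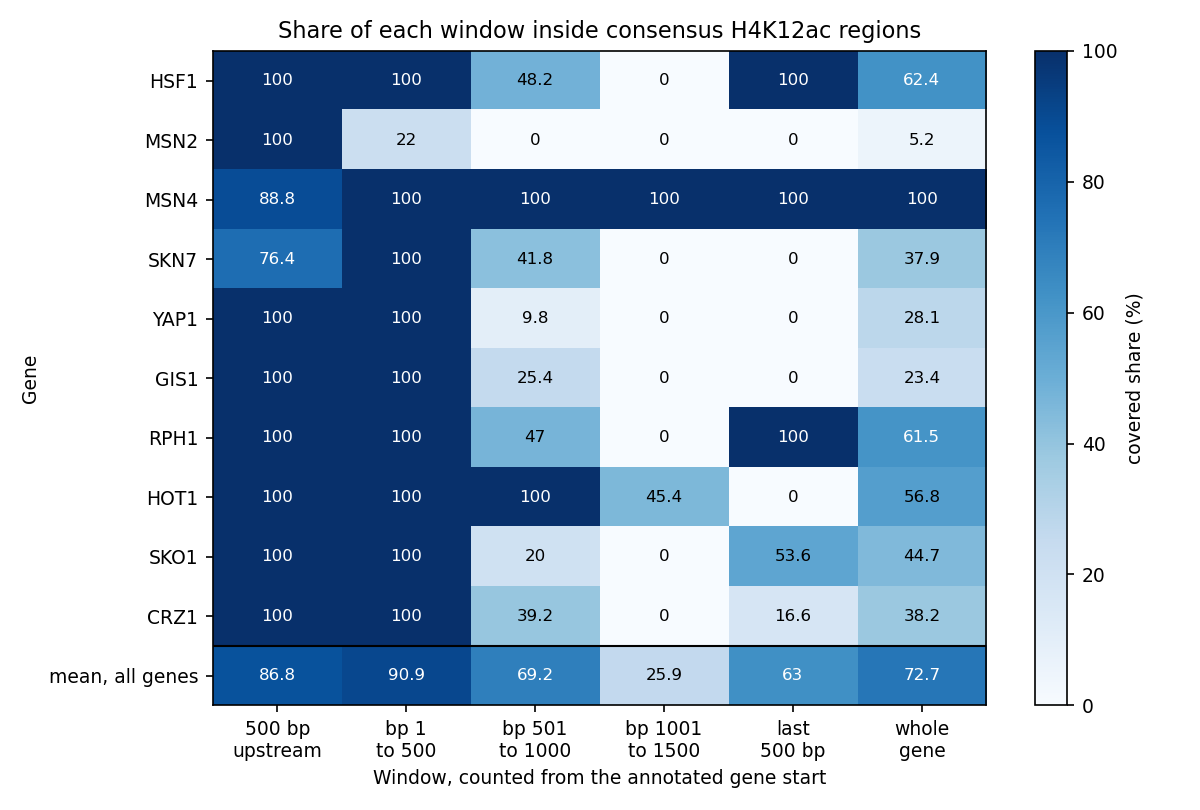
Percent of each window inside consensus H4K12ac regions, for the 10 genes (rows) and, in the bottom row, as the mean over all genes long enough for the window. Columns are the 500 bp upstream, 3 windows of 500 bp counted from the start, the last 500 bp and the whole gene. The upstream and first windows are dark in nearly every row, the window of bases 1001 to 1500 is at 0 in 8 of 10 rows, and MSN4 alone is dark throughout the gene.

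The share of the 10 genes inside a region was followed base by base as well, in steps of 10 bp. Between 300 bp before the start and 100 bp after it, all 10 genes were inside a region, where 85.9% to 90.1% of all genes were. At 600 bp into the gene 7 of 10 remained inside, against 85.5% of all genes of at least that length. At 800 bp 2 of 10 remained, against 70.0%, and at 1500 bp 1 of 10, against 24.2%. At 1700 bp the count stood at 4 of 10, against 21.7%, since regions of downstream genes had then begun. On the upstream side, 5 of 10 were inside a region at 1000 bp, against 78.8% of all genes. The genes compared at each distance were not matched to the 10 in length or in distance to the upstream gene. That distance had a median of 832.5 bp in the 10 genes and of 455 bp over all genes. Over bases 501 to 1000, the median covered share was 89.0% over all genes that long. It was 70.0% over those within the length range of the 10.

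**Figure D3:**
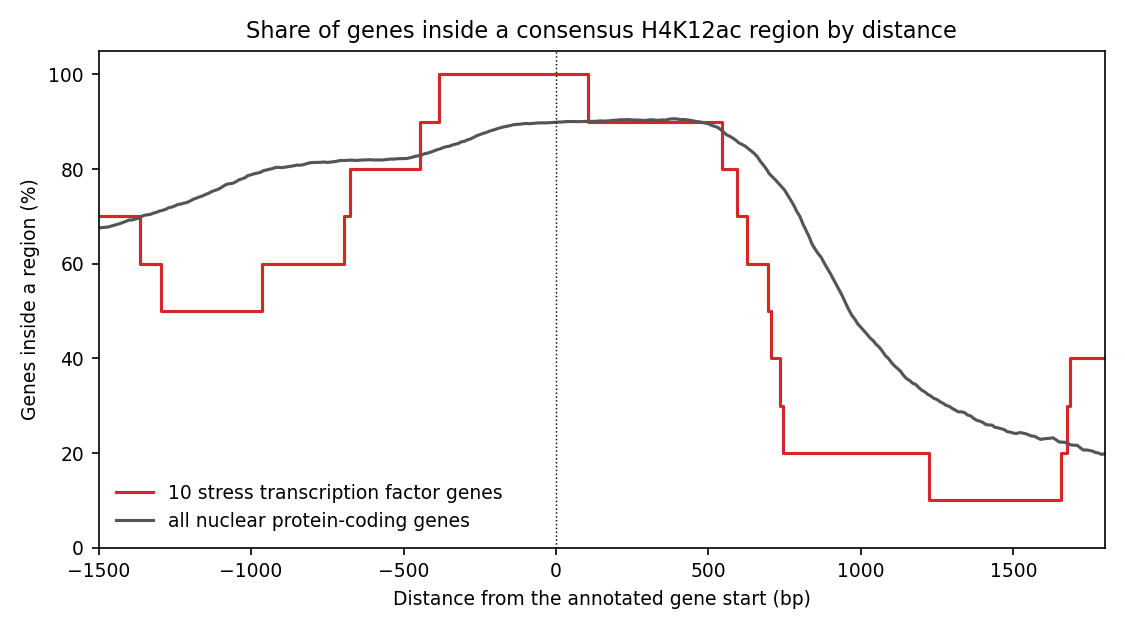
Percent of genes whose base at each distance (bp) from the annotated start lies in a consensus H4K12ac region, for the 10 stress transcription factor genes (red) and for all nuclear protein-coding genes that reach that distance (grey). The red line is at 100% around the start and drops to 20% by 800 bp into the gene, where the grey line is at 70.0%. The genes of the grey line are not matched in length to the 10.

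The 10 genes are long, 1869 to 2685 bp with a median of 2076 bp, against a median of 1200 bp over all genes, and a short gene needs fewer bases to be covered from end to end. The median covered share was 41.4% in the 10 genes (5.20% to 100%) against 100% over all genes. Set against the 834 genes of 1869 to 2685 bp, a range chosen after the values had been seen, the median lay close to that of genes of like length, which was 43.9% with quartiles of 33.5% and 64.2%. In that range 14.0% of genes were covered in full, beside 1 of 10 here, and 93.9% had their start in a region. The reach of the start region into the gene had a median of 702.5 bp in the 10 genes and 864 bp in those of the 834 genes with their start in a region. For the other windows no such comparison by length was made.

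**Figure D4:**
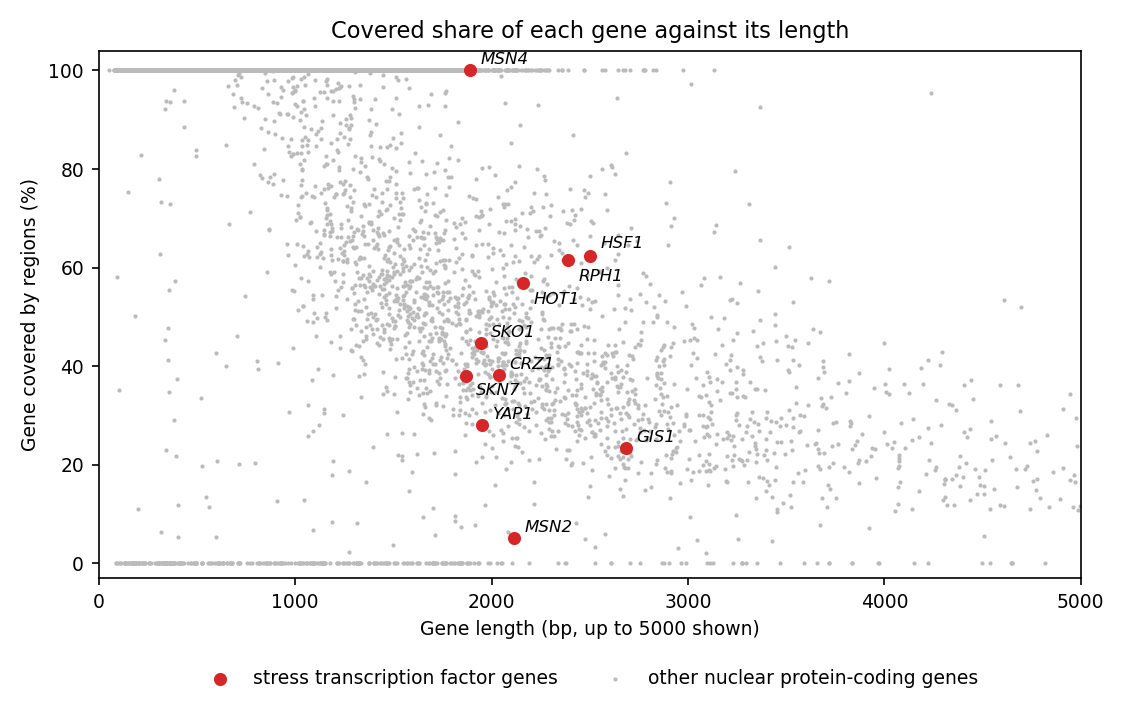
Percent of each gene covered by consensus H4K12ac regions against its length in bp (genes up to 5000 bp shown), with the 10 stress transcription factor genes in red and other nuclear protein-coding genes in grey. Between 1869 and 2685 bp the red points fall among the grey ones, with MSN4 at 100% and MSN2 at 5.20% at the extremes.

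The regions at the 10 starts had a median length of 3172 bp (1091 to 9806 bp), against 4818 bp over the 5396 genes with their start in a region and 4001 bp over those of them within the length range of the 10. The upstream neighbour was divergent in 6 genes (HSF1, MSN4, YAP1, RPH1, HOT1 and CRZ1) and lay on the same strand in 4 (MSN2, SKN7, GIS1 and SKO1). In the divergent 6, the median region was 4128 bp long, no region held the start of that gene alone, and 5 of 6 shared the region with the start of the divergent neighbour, MSN4 being the exception. Of the 2666 genes with a divergent neighbour and both starts in regions, 96.4% shared a region with it, and 3.89% of the 2803 divergent genes with a start in a region had a region to themselves. In the 4 genes with an upstream neighbour on the same strand, the median region was 1296 bp long, and 3 of 4 (SKN7, GIS1 and SKO1) had a region with no other start, against 17.6% of the 2593 such genes with a start in a region. Only MSN2 shared its region with that neighbour (1 of 4), against 69.1% of the 2427 such genes with both starts in regions. These groups of 6 and 4 are too small to say more than where each gene falls.

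The distance to the upstream gene was 460 to 1709 bp with a median of 832.5 bp in the 10 genes, against a median of 455 bp over all genes. At the other end of the gene, the last 500 bp were bare in the 3 genes that face a convergent neighbour (SKN7, YAP1 and GIS1), as in 36.9% of the 2657 genes so placed. In the 7 genes followed by a gene on the same strand, the last 500 bp were covered in full in 3 (HSF1, MSN4 and RPH1), in part in 2 (SKO1 with 53.6% and CRZ1 with 16.6%) and not at all in 2 (MSN2 and HOT1). Over all 2433 genes so placed, 66.9% were covered in full there and 18.9% were bare. No 50-base word of any of the 10 promoters or genes occurs elsewhere in the reference genome. GC content of the promoters spanned 32.4% (HOT1) to 42.2% (YAP1), with a median of 36.0% in the 10 genes and of 36.6% over all genes.

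The promoters were then searched on both strands for the short motifs that these same factors are known to bind, as a description of the covered DNA. The stress response element bound by Msn2 and Msn4, AGGGG, occurred in 5 of 10 promoters (YAP1, GIS1, RPH1, SKO1 and CRZ1), against 34.1% of the 6000 promoters with a full window. The promoters of MSN2 and MSN4 held no match to it. All 7 matches lay inside a region. They are printed with 10 bases on each side, read along the gene, with the match in capitals, CCCCT where it lies on the other strand, and the distance from the start to the farthest base of the match.
YAP1, 103 bp, chrXIII:253735-253759, plus strand: ttttcctgagCCCCTggttgacttg
GIS1, 326 bp, chrIV:636803-636827, plus strand: gaaaacctccCCCCTcctcctcccg
RPH1, 426 bp, chrV:522933-522957, plus strand: gccctcctctCCCCTaaacgtttct
RPH1, 126 bp, chrV:523233-523257, plus strand: attttaaaatAGGGGgacttaacct
SKO1, 221 bp, chrXIV:321566-321590, minus strand: ttactaccaaAGGGGttcaacgtaa
CRZ1, 405 bp, chrXIV:579165-579189, plus strand: tgcaacttcgCCCCTctgttggggg
CRZ1, 286 bp, chrXIV:579284-579308, plus strand: gaggaccctaCCCCTgtatttgtgc
RPH1 and CRZ1 each held 2 matches, and the other 3 promoters held 1.

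A pair of heat shock units in opposite directions, the kind of site that Hsf1 binds as part of longer arrays, was searched as GAANNTTC and TTCNNGAA, both of which read the same on either strand. The first was present in MSN4 and CRZ1 (2 of 10, against 19.2% of all promoters) and the other in MSN2 (1 of 10, against 21.2%). HSF1 held neither. These matches, within 133 bp of the start and inside a region, are printed in the same way, because MSN2 and MSN4, which lacked the stress response element, each held one.
MSN4, 76 bp, chrXI:323142-323169, plus strand: attaaaacgtGAAATTTCctttttgaat
CRZ1, 27 bp, chrXIV:579543-579570, plus strand: gtctcgattgGAAGTTTCgtcagacagt
MSN2, 133 bp, chrXIII:346633-346660, minus strand: cctcatatttTTCGGGAAgatcacaaca
Each is the shortest possible pair of units and not a full array.

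SKN7 held the only match of any motif that lay outside the regions, TAGGGAT, the core of the post-diauxic shift element bound by Gis1 and Rph1, 428 bp upstream and beyond the region edge at 382 bp. It also held the Yap1 element TTACTAA 246 bp upstream, inside the region. They are shown because the region edge passes between them.
SKN7, 428 bp, chrVIII:512294-512320, plus strand: tttgctataaTAGGGATgccataagtg
SKN7, 246 bp, chrVIII:512476-512502, plus strand: tgtcaaagttTTACTAAcattacacag
TAGGGAT occurs in 2.85% of all promoters and TTACTAA in 11.8%, and no other promoter of the 10 held either. The calcineurin-dependent element of Crz1, searched as GNGGCNCA, was found only in YAP1, at 289 and 107 bp upstream, against 7.67% of all promoters. Its nearer match overlaps the stress response element of YAP1 printed above. The Sko1 core ATGACGT was in none of the 10 promoters and in 4.12% of all. The TATA sequence TATAAA was in 5 of 10 on either strand (MSN2, MSN4, RPH1, HOT1 and CRZ1), against 60.5%. HOT1 held 6 matches, and the 2 matches in CRZ1 overlap each other. Only HOT1 and CRZ1 held a match on the gene strand, and the matches in MSN2, MSN4 and RPH1 lay on the other strand. Across all motifs 24 of 25 matches lay inside a region, in promoters that were themselves almost wholly covered, so this count adds nothing to the coverage.

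**Figure D5:**
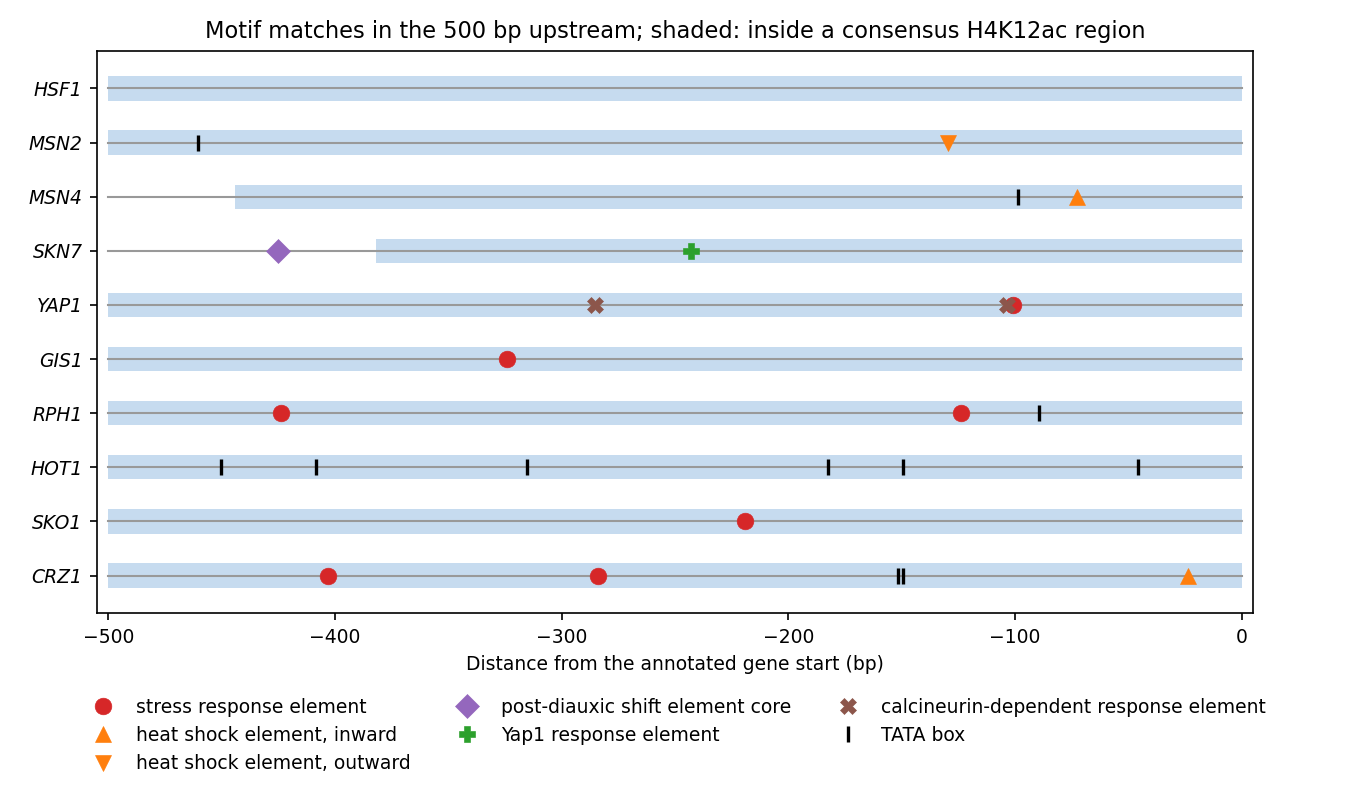
Motif matches (symbols) in the 500 bp upstream of the 10 genes, by distance in bp from the annotated start, with the part inside a consensus H4K12ac region shaded. The 7 stress response elements (red circles) lie in 5 promoters, all in shaded DNA, and the diamond of SKN7 is the only symbol outside the shading.

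The genes around these factors were looked at through 3 lists. The upstream regulators comprised 40 genes that control the factors, among them the Hog1 pathway, calcineurin and protein kinase A, and the start of each lay in a region (40 of 40, against 89.9% of all genes). Whole promoters were covered in 34 of them (85.0%), against 79.7% of all genes. TPK2, a catalytic subunit of protein kinase A, had the shortest region at its start (1004 bp), and RAS2, a GTPase that activates adenylate cyclase, the longest (11405 bp). The covered share of these genes had a median of 53.7%, against 100% over all genes, and 16 of 40 were covered in full, against 55.0% of all genes. Their median length was 1521 bp, against 1200 bp over all genes, and they were not compared with genes of like length.

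Of 19 relatives, genes of the same protein families, 18 had their start in a region (94.7%, against 89.9% of all genes). The exception was GCN4, the leucine zipper activator of amino acid synthesis genes. Its start was 1168 bp from the nearest region, and its promoter and gene were bare. Whole promoters were covered in 11 relatives, or 57.9%, against 79.7% of all genes. The covered share of the relatives had a median of 100%, the same as over all genes. Of the 19, 12 were covered in full, against 55.0% of all genes. Their median length was 1152 bp, against 1200 bp over all genes. The shortest region was that of CIN5, a Yap-family gene (1163 bp), and the longest that of JHD2, a histone demethylase gene (12702 bp). CAD1, HMS2 and MSN1, the paralogs of YAP1, SKN7 and HOT1, were looked at after their values were seen. Each was covered over 100% of its length. YAP1 was thus 71.9, SKN7 62.1 and HOT1 43.2 percentage points lower than its paralog. These paralogs are shorter genes.

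Of 34 known targets of the factors, 29 had their start in a region (85.3%, against 89.9% of all genes), and 25 promoters (73.5%) were covered in full, against 79.7% of all genes. The 5 targets with no region at the start were SSA1 and SSA3, which encode Hsp70 chaperones, HSP12, which encodes a small membrane-associated heat shock protein, STL1, a glycerol transporter gene, and GRE2, a reductase gene. The promoters and genes of SSA1 and HSP12 were bare, with the nearest region 579 bp from the start of SSA1 and 838 bp from that of HSP12. STL1 had a bare promoter but a covered share of 76.3% over the gene, and lies 22219 bp from its chromosome end. GRE2 missed by 18 bp, with 54% of the promoter and 98.3% of the gene covered. SSA3 was 450 bp from a region, with 10.2% of the promoter and 32.5% of the gene covered. No 50-base word around these 5 starts or that of GCN4 is repeated in the genome. The shortest region at a target was that of HSC82, an Hsp90 gene (643 bp), and the longest that of SIS1, an Hsp40 gene (18823 bp). In all, 87 of the 93 genes on the 3 lists had a region at the start, beside 10 of 10 factor genes and 89.9% of all genes. The count for the lists stood close to that share.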

How the data were processed

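ChIP-seq of H4K12ac and of total H4 and RNA-seq made up the 67 samples of the series, 19 of them H4K12ac libraries. The list used here names no library, so which libraries entered it was not checked. The 24 RNA-seq and 24 H4 libraries were not analysed here. The authors used Cutadapt for adapter removal and Bowtie2 for mapping to sacCer3. They ran MACS2 on H4K12ac libraries by themselves, with no H4 control named, and bedtools (default settings) then joined the peaks into a consensus. Tool versions were not given in the sources used here. The deposited file gives chromosome, start and end in bp. Its name column repeats the position, and its score and strand columns are constant, so depth is unknown and no library can be told from another. It could not be compared by group. Positions are given 1-based. All 16 chromosome names matched the R64 reference (sacCer3), and no region passed a chromosome end. Gene starts were those of the coding sequence, so the start of transcription lies further upstream. An overlap needed 1 bp. Overlaps were computed in Python 3.11.15 with NumPy 2.4.6 and Matplotlib 3.10.9, and the functions were tested on simulated data. The genes, the 3 lists and the rules were chosen with earlier results of these data known. Named were the 10 genes, the genes sharing their regions, their nearest neighbours, and of the 3 lists the genes with no region at the start and those with the shortest and longest region. Alternatives varied the promoter length, the overlap required, the position of the start, and the genes and regions kept or joined.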

Additional observations from a re-analysis of the deposited data

How the results depend on the processing

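Of 35 values over groups of genes under the alternatives, 34 stayed within the spread over the 10 genes or within 1.5 times the count. Several alternatives could not alter the 10 genes, so this count does not measure robustness. Their shortest start region (1091 bp) exceeded the 1000 bp minimum, and no neighbouring region lay within the 500 bp joining distance. Their lowest promoter share (76.4%) exceeded the 50% overlap, and none lay within 30 kb of a chromosome end. The median region length counted as unmoved at 2320 bp, against 3172 bp, without the longest 5% of regions. With a promoter of 1000 bp in place of 500 bp, the number of the 10 genes with the whole promoter in regions was 5, against 8, and the share of all genes was 72.2%. Of 90 values for single genes, 9 moved by more than the spread. The covered share of the MSN2 promoter was 0 without the longest 5% of regions, since its own region was among the 99 removed. The MSN4 promoter was covered over 44.4% and the SKN7 promoter over 38.2% at 1000 bp, and both over 100% at 250 bp. GIS1 was covered over 67.0% and SKO1 over 69.4% at 1000 bp. A start moved 50 bp upstream gave 78.8% for MSN4 and 66.4% for SKN7. No paired analysis was possible because libraries cannot be told apart in a pooled list, nor could any be omitted. No stricter peak threshold could be set, since the score column of the list is constant.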
